A study of Homo sapiens with 6 samples.

Results

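The ZNF genes of human chromosome 19 encode zinc finger proteins that bind DNA through arrays of C2H2 fingers. The deposited gene tables hold 248 rows on chromosome 19 whose name is ZNF, a number and at most a letter from A to D (247 names, since ZNF781 is listed under 2 identifiers). Of these, 197 were kept because they reached a TPM of 1 (a length-corrected share of the library, from transcripts per 1000000) in at least 3 of the 6 libraries, out of 14294 genes kept among 62754 rows. The genes were thus selected on TPM, and their levels are given as a description. Their mean TPM over the 6 libraries ranged from 0.766 to 122.8 with a median of 7.31, beside a median of 15.59 for the tested genes as a whole. Of the 51 rows that were not kept, 6 were at 0 in every library and 22 stayed below 0.1 TPM in every library.

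The cells were HUDEP-2, an immortalised human erythroid progenitor line. Cells with the genotype label MEN1 knockdown had received a lentiviral shRNA against MEN1, labelled MEN1sh2, and cells with the genotype label WT a non-targeting control shRNA, with 3 libraries each, labelled as biological replicates. The medium of both groups held 3 units/ml of erythropoietin, 50 ng/ml of stem cell factor, 1 µg/ml of doxycycline and, as a glucocorticoid, dexamethasone at 1e-06 M. Both were put under puromycin at 2 µg per ml from 24 h after infection for 48 h and were harvested at 72 h, and poly(A) RNA was sequenced. With 1 MEN1 shRNA, effects of losing menin and off-target effects of that hairpin cannot be told apart.

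Most chromosome 19 ZNF proteins carry a KRAB domain, which recruits TRIM28 and through it the histone methyltransferase SETDB1, heterochromatin proteins and histone deacetylases to the DNA that the fingers recognise. Many of them bind and silence transposable elements. The genes stand in tandem arrays that arose by repeated duplication, and ZNF274, itself a gene of these arrays, binds within the 3′ ends of other ZNF genes and brings the same repressive machinery to them. MEN1 encodes menin, a subunit of the MLL histone methyltransferase complexes.

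Promoters are shown first for the genes with the largest falls and rises that have an entry in the RefSeq promoter table. Whether their motifs bear on the direction of change was not tested. Each promoter is 300 bases of RefSeq sequence (GRCh38.p14), 250 before and 50 after the listed start, written 5′ to 3′ on the gene's strand. Capitals mark matches to 7 short motifs on either strand.
ZNF614, chr19:52028330-52028629, minus strand: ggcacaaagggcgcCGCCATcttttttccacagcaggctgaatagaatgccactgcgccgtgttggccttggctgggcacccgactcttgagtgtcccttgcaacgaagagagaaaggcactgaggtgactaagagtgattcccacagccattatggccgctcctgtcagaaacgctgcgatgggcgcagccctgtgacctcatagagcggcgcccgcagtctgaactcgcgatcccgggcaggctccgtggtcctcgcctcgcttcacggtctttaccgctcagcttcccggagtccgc
ZNF573, chr19:37779537-37779836, minus strand: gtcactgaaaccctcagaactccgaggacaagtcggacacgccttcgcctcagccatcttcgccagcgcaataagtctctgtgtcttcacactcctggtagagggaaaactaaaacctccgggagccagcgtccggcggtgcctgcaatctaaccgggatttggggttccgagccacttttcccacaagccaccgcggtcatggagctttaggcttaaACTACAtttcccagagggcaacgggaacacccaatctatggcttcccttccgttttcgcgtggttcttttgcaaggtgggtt
ZNF254, chr19:24086937-24087236, plus strand: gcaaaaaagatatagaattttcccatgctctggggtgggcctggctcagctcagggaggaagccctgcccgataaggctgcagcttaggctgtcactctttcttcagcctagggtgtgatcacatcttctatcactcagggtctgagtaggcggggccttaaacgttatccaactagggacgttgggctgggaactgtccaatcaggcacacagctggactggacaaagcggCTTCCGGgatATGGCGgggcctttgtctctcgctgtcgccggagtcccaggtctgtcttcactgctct
ZNF530, chr19:57599635-57599934, plus strand: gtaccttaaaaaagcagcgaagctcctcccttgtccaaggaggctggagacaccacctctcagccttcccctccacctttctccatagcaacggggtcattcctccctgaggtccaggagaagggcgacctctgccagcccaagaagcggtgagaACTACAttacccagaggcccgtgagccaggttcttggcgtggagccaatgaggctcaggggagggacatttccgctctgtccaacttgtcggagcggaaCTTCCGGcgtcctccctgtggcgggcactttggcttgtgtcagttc
The ZNF614 window, from a gene that fell, held 23 CG dinucleotides and a match to the YY1 core motif. The ZNF573 window, from a gene that fell, held 18 CG dinucleotides and a match to the ACTACA core of the ZNF143 motif. The ZNF254 window, from a gene that rose, held 10 CG dinucleotides and a match each to the ETS and YY1 motifs. The ZNF530 window, from another gene that rose, held 12 CG dinucleotides and a match each to the ETS and ZNF143 motifs. The listed start is the first base of the deposited gene for ZNF530 and lies inside the deposited gene for the other 3, and the gene tables do not say which start was used.

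The motifs were searched on both strands, and no motif contains another. The core of the ZNF143 site was taken as ACTACA. The binding site of ETS factors, which occur in many housekeeping promoters, was taken as CCGGAAG. The core of the YY1 site was taken as ATGGCG. The GC box bound by SP1 was taken as GGGCGG. The cyclic AMP response element (CRE) was taken as TGACGTCA. The site of GATA factors, which include the erythroid regulator GATA1, was taken as AGATAA, and NRF1 was searched by its palindromic consensus. A promoter entry was matched by symbol for 178 of the 197 genes. The ZNF143 core was present in 30.3% of these 178 windows and in 8.95% of 27305 RefSeq promoters of the same length, and the ETS motif in 47.2% and 10.7%. The YY1 motif was present in 20.8% of the 178 windows against 11% of all promoters, the SP1 motif in 64.0% against 44.6% and the CRE motif in 3.93% against 1.98%. The GATA motif went the other way, with 3.93% against 10.5%, and the NRF1 motif was at 1.69% against 1.36%. The 178 windows also differed in base composition, with a median of 22 CG dinucleotides and 61.0% GC against 14 and 58.3% for all promoters. The 178 windows are of genes that passed the TPM filter, while the 27305 promoters were not chosen by level. In 38 windows of family rows that were not kept, the ZNF143 core was in 10.5%, the YY1 motif in 7.89% and the GATA motif in 10.5%. The ETS motif was in 36.8% of these 38, the SP1 motif in 84.2%, the NRF1 motif in 5.26% and the CRE motif in 0%. Their median was 14 CG dinucleotides. The parts of composition and of level in the motif shares were not tested. The ZNF143 core was in 32.7% of 49 windows of genes that fell and in 41.7% of 12 windows of genes that rose, and the ETS motif in 44.9% and 50.0%. Among 117 windows of genes that did not pass, the shares were 28.2% and 47.9%. These matches describe the letters of the windows and no binding was measured.

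MEN1 was read first because it checks the labels. Its level was 6.29, 6.44 and 6.88 TPM in the MEN1 shRNA libraries and 41.2, 39.6 and 37.1 TPM in the control libraries, so that the groups did not overlap. The mean fell to 16.6% of control, with a log2 fold change of -2.42 (SE 0.0803, adjusted p 8.54e-06 in limma). Here and below a log2 fold change is the difference in log2(TPM + 1), MEN1 shRNA minus control, which understates changes of low genes. Adjusted p-values are from 1 limma fit over the 14294 genes, Benjamini-Hochberg adjusted, and a gene was called at 0.05. The total aligned bases inferred from the tables ranged from 5.57 to 10.81 Gb per library, and the median read coverage per base of the chromosome 19 ZNF genes from 6.77 to 14.3. In all, 10 of 10 erythroid markers reached 1 TPM in both groups. Their summed TPM was 95910 to 107900 with the MEN1 shRNA and 55450 to 61490 in the controls, and GATA1, KLF1 and EPOR did not pass the threshold. Of 8 markers of other cells, EPCAM and PTPRC reached 1 TPM in both groups, and ALB, MPO, CD3E and PECAM1 in neither. LYZ reached it in the controls alone, and COL1A1 in control replicate 2 alone, at 2.24 TPM. The sum over the 8 markers, mostly EPCAM, was 131.2 to 146.9 TPM with the MEN1 shRNA and 246.6 to 265.5 TPM in the controls. Whether these shifts in markers have a part in the ZNF results was not tested. In bulk RNA, fewer cells of a kind and less RNA per cell cannot be told apart.

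Chromosome 19 ZNF genes that changed mostly fell with the MEN1 shRNA, and most of the family did not pass the threshold. Of the 197 tested, 54 (27.4%) were lower and 15 (7.61%) higher, while 128 did not pass. Over the 14294 tested genes 53.6% were called, 31.5% lower and 22.1% higher, against 35.0% of the ZNF genes. With TPM as deposited and all libraries, the share of falls was therefore near the background, and the share of rises was below it. ZNF genes on other chromosomes gave a like picture, with 56 of 206 (27.2%) lower and 23 (11.2%) higher. Of 903 other genes of chromosome 19 53.0% were called, 28.5% lower and 24.6% higher. The differences between these groups of genes were not tested, since genes that share an array are not independent.

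**Figure D1:**
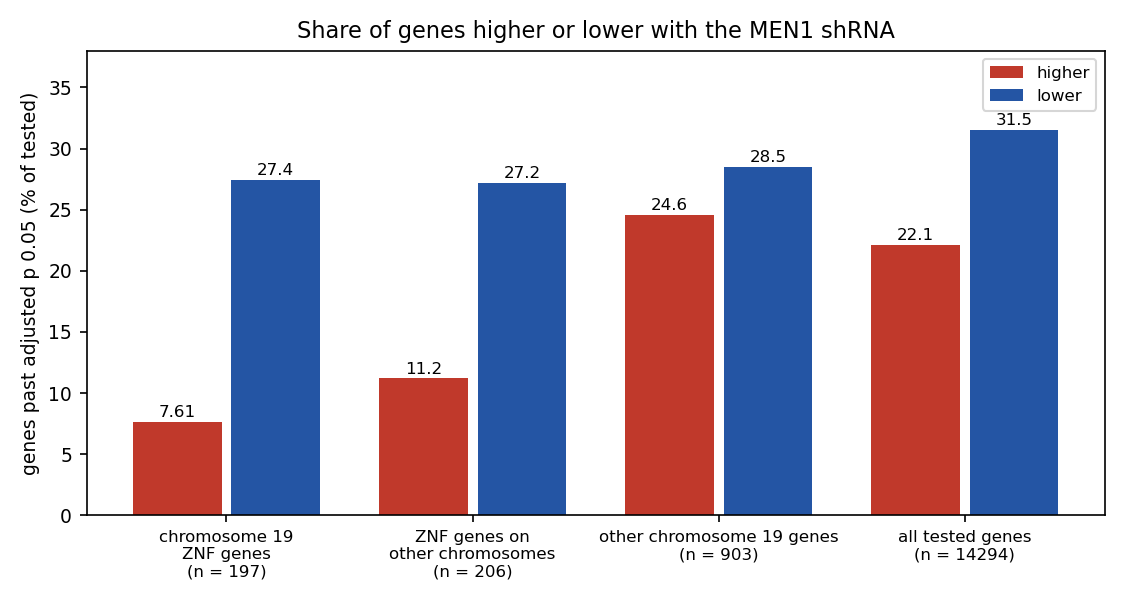
Share of tested genes (percent, y axis from 0) that were higher (red) or lower (blue) with the MEN1 shRNA at an adjusted p of 0.05 in limma, for chromosome 19 ZNF genes, ZNF genes on other chromosomes, other chromosome 19 genes and all tested genes. The share of lower genes lies between 27.2% and 31.5% in the 4 sets, and the share of higher genes is 7.61% for the chromosome 19 ZNF genes and 22.1% for all tested genes.

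The changes were also small. The median absolute log2 fold change was 0.23 over the 197 genes, 0.26 over ZNF genes elsewhere, 0.39 over other chromosome 19 genes and 0.37 over all tested genes. Among called genes it was 0.48 for the chromosome 19 ZNF genes and 0.62 for all. The signed median was -0.11, with a range from -1.42 to 0.75, beside -0.07 for all genes. The groups of libraries did not overlap for 97 of the 197 genes (49.2%), against 61.8% of all tested genes, 59.7% of other chromosome 19 genes and 60.2% of genes of like level, defined next.

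Genes of like level were set beside them. Among 3101 tested genes whose mean TPM lay in the interquartile range of the ZNF genes (3.46 to 12.3 TPM), 52.3% were called, 19.5% higher and 32.8% lower. With the ZNF genes divided in 3 by level, in the lowest part 33.3% were called, beside 34.7% of all tested genes in the same range of levels. In the middle part 32.3% were called beside 52.9%, and in the highest part 39.4% beside 62.8%. By direction, the lowest part had 27.3% lower and 6.06% higher, beside 17.9% and 16.8% of all tested genes in that range. The middle part had 29.2% and 3.08% beside 33.3% and 19.6%, and the highest part 25.8% and 13.6% beside 38.3% and 24.5%. The share of rises was below that of all genes in each part, and the share of falls was above it in the lowest part alone. These sets share a range of levels but not the level within it. Median TPM was 2.85 for the ZNF genes and 1.97 for all genes in the lowest part, 7.31 and 7.35 in the middle and 15.84 and 31.11 in the highest. The part of this in the shares was not tested.

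The split between falls and rises depends on how the libraries are put on a scale. Of the called ZNF genes 78.3% were lower; this became 71.9% when TPM was recomputed without globin and mitochondrial genes (16 higher, 41 lower), 64.4% with median-of-ratios scaling (21 higher, 38 lower) and 59.0% with quantile normalization (25 higher, 36 lower). The same settings gave 58.8%, 52.8%, 50.5% and 50.9% over all tested genes. In each of these settings the share of ZNF genes called higher, 7.61% to 12.7%, was below that of all genes, 22.1% to 26.3%. The count of called genes also moved with single libraries: it was 39 without control replicate 3, 42 without control replicate 2 and 44 without MEN1 shRNA replicate 3. The falls numbered 31 and 35 without these 2 controls, and the rises 7 or 8 without any 1 library but MEN1 shRNA replicate 1, which left 18. Falls were then 15.7% of ZNF genes beside 27.4% of all genes without control replicate 3, and 17.8% beside 26.9% without control replicate 2.

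Summed over the 197 genes, the level was 1953, 1995 and 2046 TPM in the MEN1 shRNA libraries and 2105, 2189 and 2195 TPM in the controls. The groups did not overlap, and the mean sum was 1998 ± 46.8 against 2163 ± 50.7 TPM (SD, n = 3 each), 92.4% of control. Without globin and mitochondrial genes in the total the sums were 2222, 2275 and 2307 against 2280, 2365 and 2386, which overlap, and the mean was 96.8% of control. The 128 genes that did not pass summed to 99.2% of control, the called falls to 67.9% and the called rises to 132.5%, which restates the calls.

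ZNF480 had the largest fall of the family on the log2(TPM + 1) scale. This KRAB zinc finger gene (ENSG00000198464, 52297169 to 52325922, plus strand) stood at 27.5, 27.5 and 28.1 TPM in the control libraries and at 11.7, 9.04 and 8.59 TPM with the MEN1 shRNA. Every knockdown library was below every control library by a wide margin. The mean fell from 27.7 ± 0.354 to 9.78 ± 1.68 TPM, 35.3% of control, with a log2 fold change of -1.42 (SE 0.115, adjusted p 7.21e-05 in limma). ZNF614, another KRAB gene (ENSG00000142556, 52012765 to 52030240, minus strand), whose promoter is shown above, was at 12.8, 15.3 and 16.7 TPM in controls and at 7.32, 6.58 and 4.82 TPM with the MEN1 shRNA. It fell to 41.9% of control (log2 fold change -1.14, SE 0.159, adjusted p 0.000699 in limma), with no overlap. Both genes lie in the same array near the end of the long arm, with 5 tested genes between them. ZNF573 (ENSG00000189144, 37735833 to 37817300, minus strand) was at 4.90, 6.12 and 4.39 TPM in controls and at 2.26, 2.59 and 1.14 TPM with the MEN1 shRNA. It fell to 38.9% of control (log2 fold change -1.06, SE 0.218, adjusted p 0.00459 in limma), although its coverage was only 0.177 to 1.24 reads per base. These 3 were the only called genes of the family with a change of at least 2-fold on this scale. As a ratio of means the low-level gene ZNF835, described below, fell further, to 28.4% of control, and ZNF69 to 35.4%.

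The other 5 of the 8 largest falls stood at 44.5% to 52.2% of control. ZNF57 (ENSG00000171970, 2900928 to 2918473), which lies near the short-arm end in a group of 5 rows, of which 4 were tested and which is therefore not among the 8 clusters below, was at 10.18, 10.98 and 11.95 TPM in controls and 6.21, 5.06 and 4.38 TPM with the MEN1 shRNA (log2 fold change -0.96). ZNF558 (ENSG00000167785, 8806170 to 8832314) was the most even, with 14.5, 13.9 and 14.8 TPM in controls and 7.43, 7.56 and 7.59 TPM with the MEN1 shRNA (-0.85). ZNF667 (ENSG00000198046, 56439325 to 56478065) went from 9.57, 10.94 and 11.1 TPM to 5.14, 5.55 and 5.58 TPM (-0.84). In each of these genes the groups were well apart. ZNF550 (ENSG00000251369, 57535257 to 57559863) was at 5.22, 5.28 and 6.31 TPM in controls and 2.80, 2.49 and 2.19 TPM with the MEN1 shRNA (-0.92, 44.5% of control). ZNF20 (ENSG00000132010, 12092843 to 12140355) was at 4.70, 5.14 and 4.28 TPM and fell to 2.17, 1.98 and 2.37 TPM (-0.85), and it shares its strand and part of its span with the listed read-through gene ZNF625-ZNF20. The adjusted p of the 5 genes lay between 0.000129 and 0.000938 in limma, and none of the 5 lost its call when any 1 library was left out.

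**Figure D2:**
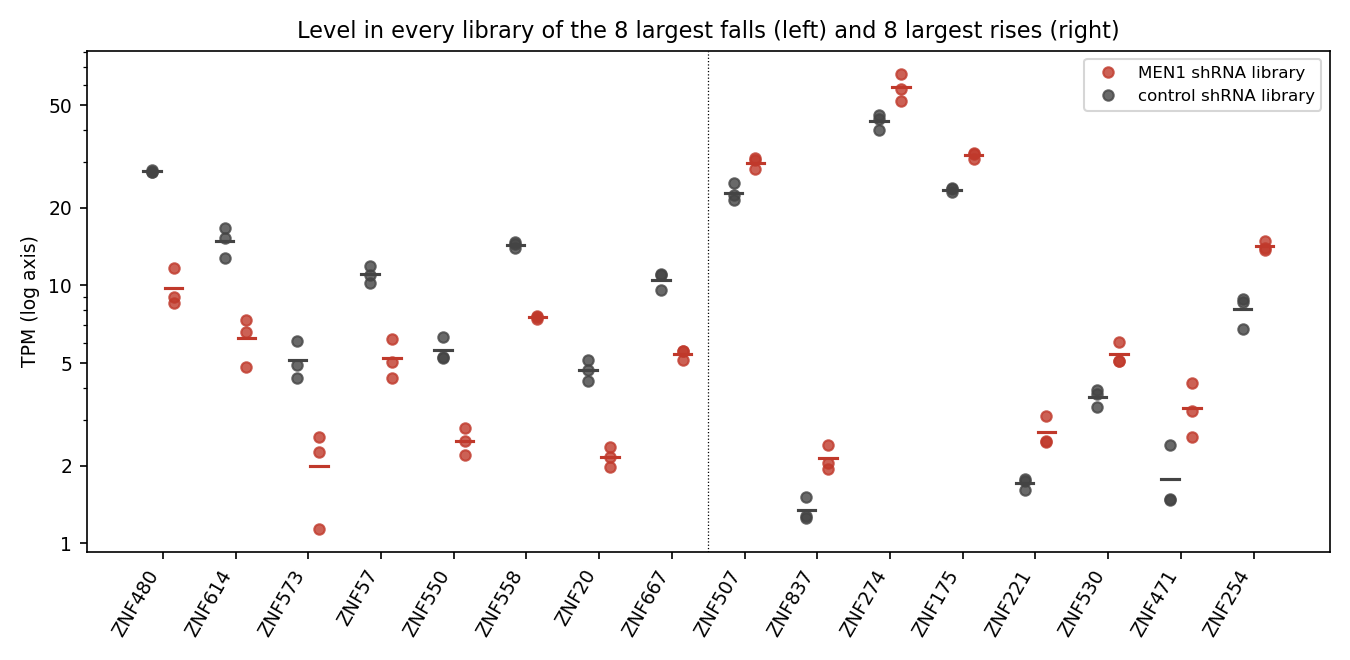
TPM of every library (points, log axis) and group mean (bars) for the 8 largest falls at the left and the 8 largest rises at the right, control in grey and MEN1 shRNA in red. In ZNF480 the controls sit at 27.5 to 28.1 TPM and the MEN1 shRNA libraries at 8.59 to 11.7; no gene shown has overlapping groups.

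The rises were fewer and smaller. ZNF254 (ENSG00000213096, 24033405 to 24129968, plus strand), a KRAB gene first cloned from blood-forming cells, was at 6.76, 8.89 and 8.64 TPM in controls and 13.8, 14.9 and 14.0 TPM with the MEN1 shRNA. The groups were separate, and the mean rose to 175.5% of control (log2 fold change 0.75, SE 0.115, adjusted p 0.00111 in limma). Reads could be shared with 2 unnamed genes on the same strand within its span; summed with them it rose by 0.50 on the log2 scale. ZNF471 (ENSG00000196263, 56507850 to 56530221), a KRAB gene often methylated in tumours, was at 1.48, 1.47 and 2.40 TPM in controls and 2.59, 3.27 and 4.18 TPM with the MEN1 shRNA. It reached 187.6% of control (0.64, SE 0.197, adjusted p 0.0263 in limma). The highest control lay just below the lowest knockdown library, and the call was lost without MEN1 shRNA replicate 2 or 3 or control replicate 1 or 2 (adjusted p 0.0652 to 0.0843 in limma).

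ZNF175, also known as OTK18 and described as a repressor of the HIV promoter in macrophages, had the lowest standard error among the 8 largest rises. It was at 23.1, 23.6 and 23.8 TPM in controls and 31.0, 32.4 and 32.7 TPM with the MEN1 shRNA (ENSG00000105497, 51571283 to 51592510). The mean rose to 136.4% of control (0.43, SE 0.0643, adjusted p 0.000963 in limma). ZNF274 (ENSG00000171606, 58183029 to 58213562), the family member that directs SETDB1 to ZNF genes, was at 44.2, 40.0 and 45.7 TPM in controls and 52.0, 57.8 and 66.3 TPM with the MEN1 shRNA. It rose to 135.6% of control (0.43, SE 0.0995, adjusted p 0.0083 in limma) without overlap. ZNF507, a zinc finger gene without a KRAB domain, rose from 21.5, 24.9 and 22.3 TPM to 28.2, 30.6 and 31.1 TPM (0.37). ZNF530, whose promoter is shown above, rose from 3.39, 3.81 and 3.92 TPM to 6.04, 5.08 and 5.11 TPM (0.44).

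ZNF221 and ZNF837 completed the 8 largest rises at low levels. ZNF221 went from 1.62, 1.78 and 1.74 TPM to 2.48, 2.50 and 3.11 TPM (0.44, adjusted p 0.0269 in limma). ZNF837 went from 1.26, 1.28 and 1.52 TPM to 1.95, 2.41 and 2.05 TPM (0.41, adjusted p 0.0405 in limma). The libraries did not overlap in either gene. Neither call was firm: ZNF837 lost it without any 1 of the 6 libraries (adjusted p 0.0506 to 0.13 in limma), and ZNF221 without each library but MEN1 shRNA replicate 1 (0.0508 to 0.0885).

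Of the 6 most abundant genes, ZNF146 fell, ZNF274 rose and 4 did not pass. ZNF146, which consists of zinc fingers with no KRAB domain, was the most abundant at 134, 141 and 144 TPM in controls and 110, 104 and 104 TPM with the MEN1 shRNA (ENSG00000167635, 36214602 to 36238771). It fell to 76.1% of control (log2 fold change -0.39, SE 0.056, adjusted p 0.0008 in limma), with the groups apart and a coverage of 179 to 449 reads per base. After ZNF146 came ZNF787, ZNF274, ZNF581, ZNF317 and ZNF544. ZNF787 was at 61.2, 59.98 and 50.3 TPM in controls and 46.9, 47.9 and 52.3 TPM with the MEN1 shRNA, an overlap through control replicate 3, without which it was called (-0.30, adjusted p 0.0196 in limma). ZNF544 was at 49.1, 45.6 and 54.4 TPM in controls and 40.3, 44.5 and 42.7 TPM with the MEN1 shRNA and just missed the threshold (-0.22, adjusted p 0.0545 in limma); without control replicate 2 it passed (-0.28, 0.034). ZNF581 (-0.08, adjusted p 0.509 in limma) and ZNF317 (0.09, 0.231) did not pass. ZNF317 passed as higher under median-of-ratios scaling and quantile normalization (0.18 in both, adjusted p 0.0346 and 0.0321 in limma), and the direction of ZNF581 turned under median-of-ratios scaling, without control replicate 1 and when summed with overlapping genes.

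A few genes entered through 1 group alone, which makes a difference between the groups a condition of their being listed. ZNF69 reached 1 TPM in the controls alone, at 1.41, 1.19 and 1.68 TPM against 0.920, 0.502 and 0.0940 TPM with the MEN1 shRNA. ZNF835 did so too, at 1.21, 1.30 and 1.07 TPM against 0.322, 0.255 and 0.440 TPM. ZNF563 reached it with the MEN1 shRNA alone, at 1.10, 1.29 and 1.14 TPM against 0.806, 0.584 and 0.923 TPM in controls. ZNF69 and ZNF835 were called lower and ZNF563 was not called; without the 3, 67 of 194 genes were called, 15 higher and 52 lower. The call of ZNF69 was lost without any 1 library but MEN1 shRNA replicate 1 (adjusted p 0.0546 to 0.0949 in limma). Nearest inside the limit, by the library that decides it, were ZNF835 at 1.07, ZNF563 at 1.10 and ZNF763 at 1.14 TPM, and nearest outside were ZNF738 at 0.981, ZNF415 at 0.966 and ZNF358 at 0.958 TPM. In all, 185 of the 197 genes reached 1 TPM in each of the 6 libraries.

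Position was read by ordering the 248 rows by start and opening a new cluster at each gap above 1 Mb, which gave 8 clusters with at least 5 tested genes. Some genes are named by position below because of the values they turned out to have, and no test between clusters was run. The clusters differed first in how many genes were expressed. In cluster 3, from ZNF101 to ZNF254 (19668796 to 24129968), 15 of 37 rows passed the level filter. This is the primate-expanded array that holds ZNF91 and ZNF93. In cluster 8, from ZNF628 to ZNF446 (55476617 to 58481230), 55 of 59 did, and in cluster 7, from ZNF175 to ZNF331 (51571283 to 53580269), 34 of 39.

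**Figure D3:**
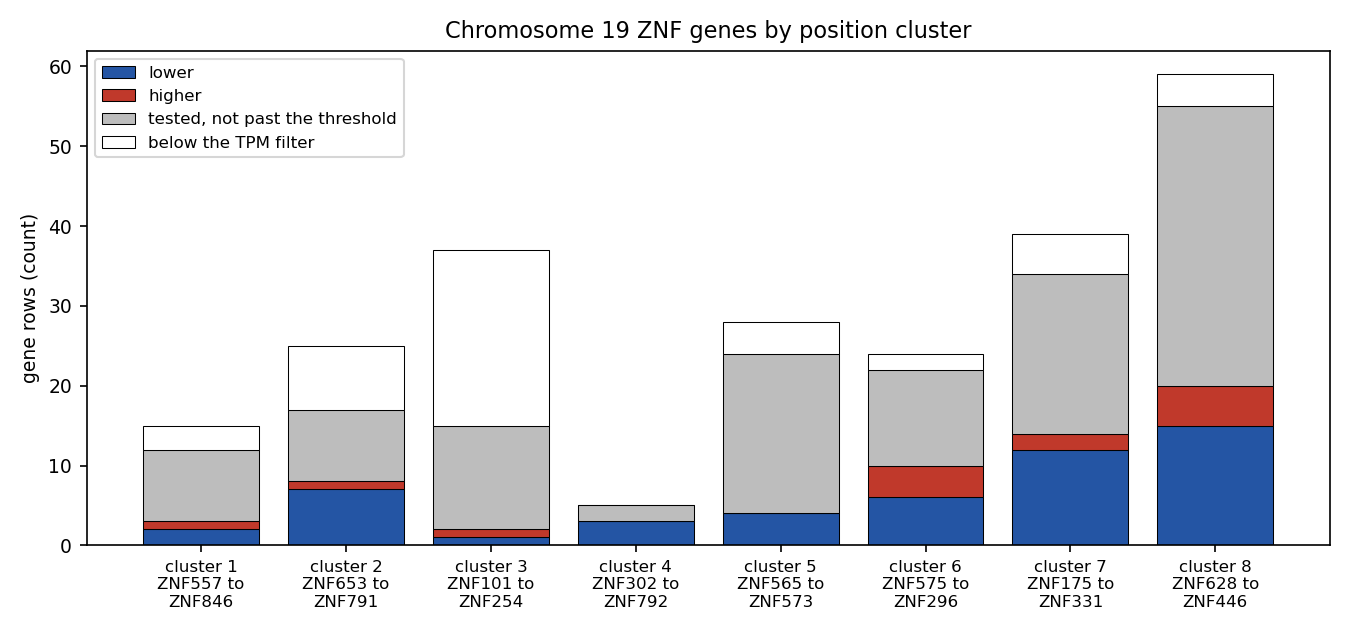
Number of chromosome 19 ZNF gene rows (y axis from 0) in each of the 8 position clusters, divided into lower (blue), higher (red), tested but not past the threshold (grey) and below the TPM filter (white). Cluster 3 has 37 rows of which 15 were tested and 2 called, and cluster 8 has 59 rows of which 55 were tested and 20 called.

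Clusters 7 and 8 lie at the end of the long arm. In cluster 7, 12 of 34 genes (35.3%) were lower and 2 (5.88%) higher, beside 31.5% and 22.1% of all tested genes, with a median log2 fold change of -0.21. Besides ZNF480 and ZNF614 these included ZNF841, ZNF616, ZNF160 and ZNF600, at 59.8% to 71.5% of control. The rises were ZNF175, the first gene of the cluster, and ZNF888. The 14 calls became 6 without control replicate 2 and 8 without control replicate 3. ZNF83 was the most abundant gene of the cluster, at 26.3, 30.5 and 30.7 TPM in controls and 24.4, 34.7 and 37.7 TPM with the MEN1 shRNA, and the groups overlapped (0.12, adjusted p 0.543 in limma); without MEN1 shRNA replicate 1 it passed (0.30, 0.032). In cluster 8, 15 of 55 genes (27.3%) were lower and 5 (9.09%) higher, with a median of -0.13. ZNF550, ZNF667 and ZNF587B were its largest falls among genes that reached 1 TPM in both groups, and ZNF471, ZNF530, ZNF274, ZNF837 and ZNF776 its rises.

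Some neighbours within an array went opposite ways. ZNF530, which rose to 145.9% of control, lies next in order to ZNF416, on the other strand, which fell to 66.9%. In cluster 6, from ZNF575 to ZNF296 (43525497 to 45076478), 4 genes rose (18.2%) and 6 fell (27.3%) among 22, with a median of 0.02. Over all tested genes 22.1% rose and 31.5% fell. The rises ZNF221, ZNF225, ZNF226 and ZNF227 are on the plus strand of 1 tandem run, at 157.5%, 132.0%, 127.6% and 120.3% of control. Inside the same run and on the same strand, ZNF284 was at 1.65, 1.76 and 1.94 TPM in controls and 0.726, 0.810 and 1.06 TPM with the MEN1 shRNA, 48.6% of control. ZNF284 shares part of its span with another listed gene on that strand. ZNF45 just before the run and ZNF285 beyond it, both on the minus strand, were at 75.9% and 57.6% of control. The cluster's 10 calls became 4 to 6 without MEN1 shRNA replicate 3 or without any 1 of the controls. ZNF296, at the far end, fell to 61.6%, and ZNF428, the most abundant gene of the cluster, had overlapping groups, at 40.96, 42.5 and 24.2 TPM in controls and 39.3, 48.1 and 47.9 TPM with the MEN1 shRNA (0.36, adjusted p 0.183 in limma).

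Cluster 4, from ZNF302 to ZNF792 (34677639 to 34964229), is the smallest, and each of its 5 tested genes had a log2 fold change below 0. ZNF792 fell to 58.4% of control, ZNF30 to 58.6% and ZNF181 to 73.8%, while ZNF599 (-0.41, adjusted p 0.0684 in limma) and ZNF302 (-0.31, 0.068) did not pass. Thus 3 of 5 genes were called, each lower, beside 53.6% of all tested genes called, 31.5% lower and 22.1% higher. Of all 14294 tested genes, 7905 had a log2 fold change below 0. The cluster median was -0.41. ZNF302 was at 18.0, 23.5 and 21.7 TPM in controls and 18.7, 14.9 and 16.9 TPM with the MEN1 shRNA, overlapping through control replicate 1, and it passed without that library (-0.41, 0.0262) or without MEN1 shRNA replicate 1 (-0.38, 0.0452). Without MEN1 shRNA replicate 2 or 3, 1 gene of the cluster remained past the threshold.

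In cluster 5, from ZNF565 to ZNF573 (36182276 to 37817300), 4 of 24 genes were called and each was lower: ZNF146, ZNF566, ZNF420 and ZNF573. Thus 16.7% were lower and 0% higher, beside 31.5% and 22.1% of all tested genes. ZNF420, also known as APAK, a KRAB protein that holds p53 activity in check, was at 8.64, 6.39 and 8.31 TPM in controls and 4.55, 6.01 and 4.96 TPM with the MEN1 shRNA (-0.51, adjusted p 0.021 in limma). In cluster 2, from ZNF653 to ZNF791 (11483427 to 12640098), 7 of 17 were lower (41.2%) and 1 higher (5.88%). The rise, ZNF791, was small (0.20, adjusted p 0.0451 in limma) and lost its call without any 1 of the 6 libraries (0.0579 to 0.115), and the cluster's count of calls dropped from 8 to 1 without MEN1 shRNA replicate 2, control replicate 2 or control replicate 3. ZNF700 was its most abundant gene (-0.19, adjusted p 0.0816 in limma).

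Clusters 1 and 3 held few calls. In cluster 1, from ZNF557 to ZNF846 (7069703 to 9793180), ZNF414 was higher and ZNF558 and ZNF562 lower among 12, with a median of 0.07. ZNF414 was at 14.5, 17.9 and 13.2 TPM in controls and 18.0, 19.9 and 20.6 TPM with the MEN1 shRNA (0.35, adjusted p 0.0398 in limma), a call lost without control replicate 1 or 3 or MEN1 shRNA replicate 2 or 3 (0.101 to 0.122). In cluster 3, ZNF254 was higher and ZNF100 lower among 15, while ZNF101, its most abundant gene, did not pass (-0.22, adjusted p 0.103 in limma). ZNF100 was at 9.34, 10.9 and 10.5 TPM in controls and 9.07, 7.19 and 7.56 TPM with the MEN1 shRNA (-0.33, adjusted p 0.041 in limma). It lost its call without MEN1 shRNA replicate 2 or 3 or control replicate 2 or 3 (0.107 to 0.125). It also lost it under median-of-ratios scaling, quantile normalization, TPM without globin and mitochondrial genes, no filter and the replicate block (0.0817 to 0.13). Outside the clusters 1 of 13 tested genes was higher (7.69%) and 4 lower (30.8%), beside 22.1% and 31.5% of all tested genes.

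**Figure D4:**
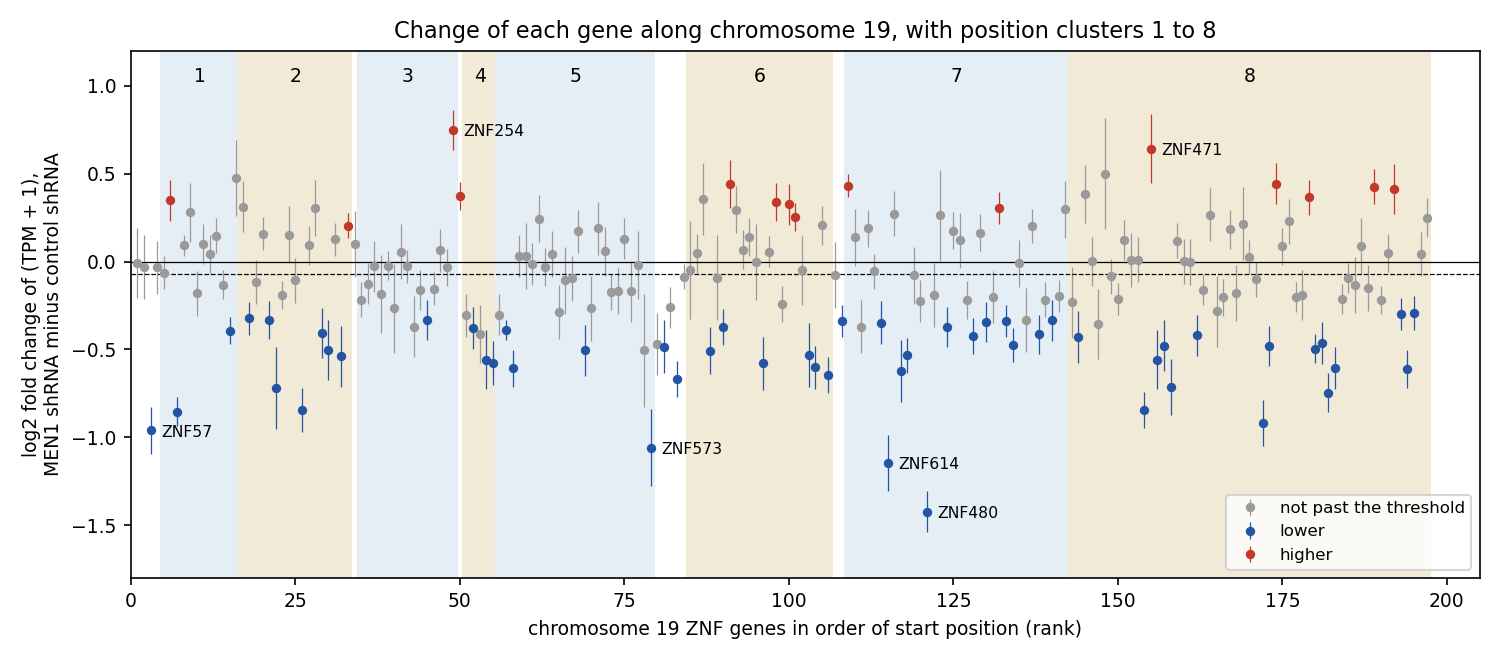
Log2 fold change of TPM + 1 (y axis, MEN1 shRNA minus control, bars are SE) of the 197 genes in order of start along chromosome 19 (x axis, rank), with shaded position clusters 1 to 8 and a dashed line at the median of all tested genes, -0.07. Values run from ZNF480 at -1.42 to ZNF254 at 0.75; clusters 4 and 5 hold falls (blue) and no rise (red), and the other 6 clusters hold both.

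The strands of the family differed in their counts. On the minus strand 31 of 90 genes were lower (34.4%) and 3 higher (3.33%), with a median log2 fold change of -0.17. On the plus strand 23 of 107 were lower (21.5%) and 12 higher (11.2%), with a median of -0.03. Over all tested genes the strands were alike, with 31.2% lower and 21.8% higher on the minus strand and 31.7% and 22.4% on the plus strand. Of the 83 tested genes that share their strand and some bases with another listed gene 23 were lower (27.7%) and 2 higher (2.41%). Of the 114 that do not, 31 were lower (27.2%) and 13 higher (11.4%). The share of falls was thus alike in these 2 sets, beside 31.5% lower and 22.1% higher over all tested genes. The difference between strands was not tested. How the quantification divided reads among near-identical paralogs, and whether it used strand, is not given in the sources used here, and 102 of the 197 genes overlap a gene on the opposite strand.

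Some genes without a KRAB domain were read from a hand-made list. The list was not checked against protein sequences, so genes outside it may also lack the domain. Its length is therefore no count of such genes, and the values below compare listed with unlisted genes only. Of 20 tested of the 22 listed, 2 were higher and 4 lower, beside 22.1% and 31.5% of all tested genes, with a median of -0.06; of the other 177 genes 13 were higher and 50 lower, with a median of -0.13. Among members with known transposable element targets, 5 of 7 listed were tested and 0 were called in limma, with 2 at an unadjusted p under 0.05, beside 53.6% called over all tested genes. ZNF91, a repressor of SVA elements, was at 5.95, 6.61 and 5.23 TPM in controls and 6.10, 5.74 and 6.86 TPM with the MEN1 shRNA, and the groups overlapped (0.06, adjusted p 0.689 in limma; the sign turned without control replicate 3). ZNF649 was at 13.9, 14.5 and 15.1 TPM in controls and 13.6, 8.52 and 11.4 TPM with the MEN1 shRNA (-0.37, adjusted p 0.076 in limma), and passed without MEN1 shRNA replicate 1 (-0.51, 0.017). The paralogs ZNF417 and ZNF587, which bind HERV-K elements, were at 93.2% and 85.7% of control and ZNF611 at 83.4%, with adjusted p-values of 0.399, 0.0749 and 0.125 in limma. ZNF93, a repressor of LINE-1 elements, did not exceed 0.280 TPM in any library, and ZNF534 did not exceed 0.0973 TPM.

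A few members with other described roles were read beside them. ZNF473, a partner of the U7 particle in histone pre-mRNA processing, was at 28.5, 28.5 and 28.2 TPM in controls and 25.5, 20.7 and 21.0 TPM with the MEN1 shRNA. It fell to 78.7% of control without overlap (-0.34, SE 0.0924, adjusted p 0.0165 in limma), and the call was lost without MEN1 shRNA replicate 2 (0.0583) or 3 (0.0557) and under median-of-ratios scaling (-0.25, 0.0538) and quantile normalization (-0.22, 0.0763). ZNF331, an imprinted gene, was at 11.4, 15.04 and 15.8 TPM in controls and 14.1, 18.6 and 19.97 TPM with the MEN1 shRNA, with overlap (0.30, adjusted p 0.159 in limma), and passed without MEN1 shRNA replicate 1 (0.44, 0.0412), after quantile normalization and with the replicate block. ZNF568, whose mouse counterpart represses a placental Igf2 transcript, was at 3.11, 3.16 and 2.71 TPM in controls and 3.22, 3.65 and 3.64 TPM with the MEN1 shRNA (0.17, adjusted p 0.268 in limma).

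The corepressors through which KRAB proteins act moved in both directions. Of 26 genes on a list of this pathway, 7 were higher and 6 lower (50.0% called, beside 53.6% of all tested genes), with a median of -0.06. TRIM28, the KRAB partner, was at 503, 515 and 574 TPM in controls and 494, 465 and 509 TPM with the MEN1 shRNA, and the groups overlapped (-0.12, adjusted p 0.193 in limma). SETDB1 was at 35.7, 36.9 and 36.1 TPM in controls and 33.9, 33.2 and 35.3 TPM with the MEN1 shRNA (-0.09, adjusted p 0.279 in limma), and its sign turned under median-of-ratios scaling and quantile normalization. ATF7IP, which stabilises SETDB1, rose from 16.7, 15.4 and 17.6 TPM to 25.1, 22.6 and 22.7 TPM (0.48, SE 0.0847, adjusted p 0.00223 in limma).

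The largest rise on the list was CBX1, a heterochromatin protein that binds methylated histone H3. It was at 28.5, 39.5 and 31.7 TPM in controls and 60.6, 54.7 and 57.9 TPM with the MEN1 shRNA, 173.8% of control (0.79, SE 0.117, adjusted p 0.000926 in limma), without overlap. The histone deacetylase gene HDAC1 rose to 140.2% of control (0.48) and the DNA methyltransferase gene DNMT3B to 161.8% (0.55), the latter from 2.76 to 3.53 TPM in controls to 4.49 to 5.27 TPM. SMARCAD1, a chromatin remodeler that binds TRIM28, had the largest fall, from 46.8, 50.2 and 52.4 TPM to 40.6, 36.8 and 37.3 TPM (-0.37, SE 0.0725, adjusted p 0.00354 in limma). CHD4, ATF7IP2 and ZNF274 were the other rises and CBX3, DNMT1, PPHLN1, SUV39H2 and EHMT2 the other falls. Their count moved with single libraries, from 13 to 6 without MEN1 shRNA replicate 2, 7 without MEN1 shRNA replicate 3 or control replicate 3 and 8 without control replicate 2.

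**Figure D5:**
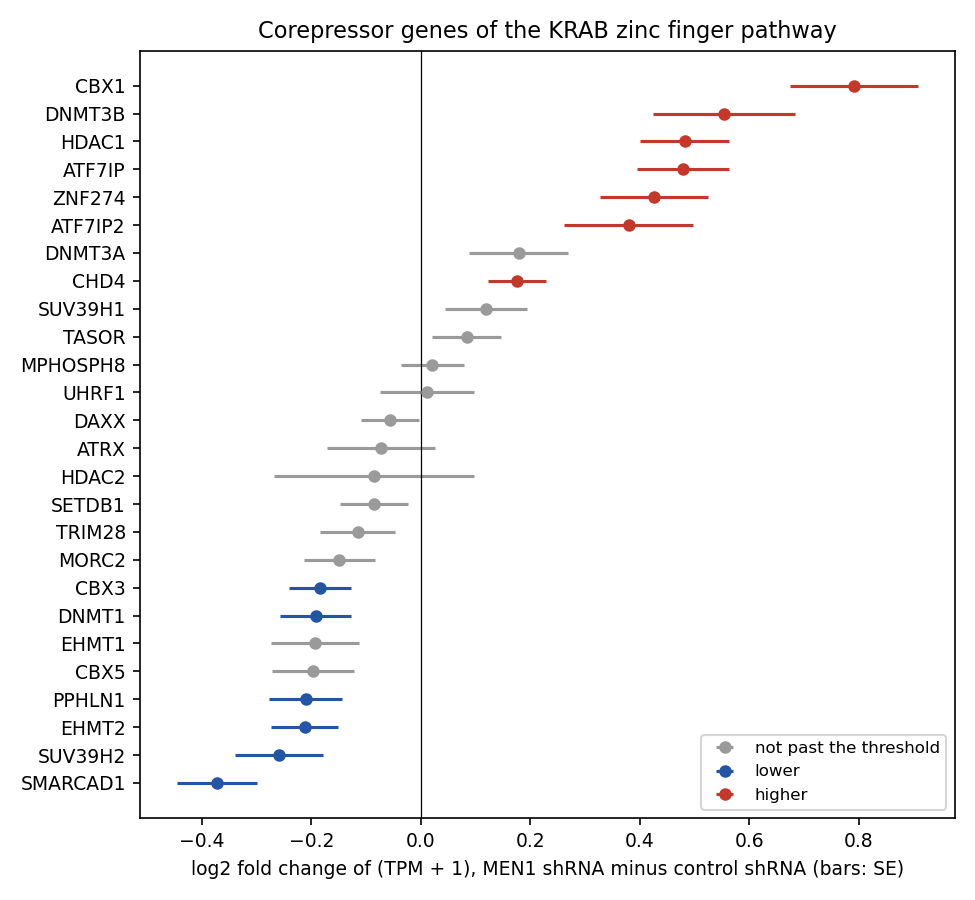
Log2 fold change of TPM + 1 (x axis, MEN1 shRNA minus control, bars are SE) of the 26 genes of the KRAB corepressor list, higher in red, lower in blue and not past the threshold in grey. CBX1 is at 0.79 and SMARCAD1 at -0.37, and TRIM28 and SETDB1 lie near 0 at -0.12 and -0.09.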

How the data were processed

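Poly(A) RNA of 6 HUDEP-2 libraries was compared, 3 with a MEN1 shRNA and 3 with a control shRNA, grouped by their titles. The submitters' processing notes name FastQC, Trimmomatic, STAR 2.7.1a, Picard 2.20.4 and StringTie 2.0.4 and the build hg38, without giving their roles. The annotation is not given in the sources used here. The deposited TPM values are the authors' and sum to 1000000 per library, the authors' deposited FPKM is likewise per length and depth, and the deposited coverage is the mean reads per base, per the file headers. The ratio of coverage to FPKM gave the aligned bases. No read counts were used, so no count model was fitted. In control replicate 2, 2 genes had a value just below 0, which was set to 0. Labels call the replicates biological, and p-values measure the spread between these libraries.

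Log2(TPM + 1) of genes at 1 TPM or more in at least 3 libraries entered limma 3.58.1 (R 4.3.3; lmFit, eBayes with a trend), 2-sided, with Benjamini-Hochberg adjustment over 14294 genes and a threshold of 0.05, after a check on simulated data. Python 3.11.15 with pandas 2.3.3, NumPy 2.4.6 and matplotlib 3.10.9 made the tables and figures. Of the 248 identifiers 247 are in GENCODE release 29, as protein-coding genes overlapping the deposited position, so coordinates are those of the deposited tables on GRCh38, chromosome 19. Promoter sequences are RefSeq's.

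The genes, lists, naming rule and alternatives were chosen with earlier results of these data known. The rule names MEN1, the 8 largest rises and falls among called genes whose groups do not overlap and whose mean is 2 TPM or more in a group, and the 6 most abundant genes. It also names the extreme called genes and the most abundant gene of each cluster, genes at the TPM limit or reaching it in 1 group alone, and set genes of the retroelement and corepressor lists. The lists without a KRAB domain, of retroelement binders and of corepressors were written from general knowledge, and no protein table was used. Of the markers of other cells, 1 is not reported here and is left out of their count and sum.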

Additional observations from a re-analysis of the deposited data

How the results depend on the processing

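Of 295 checks under other settings, 206 were labelled as the same and 89 as moved, and none reversed. The label of the same was wide and does not mean an equal value. It was given where the 69 called genes became 46 without MEN1 shRNA replicate 2 and 50 with the replicate block. It was also given where the 54 falls became 36 after quantile normalization. The 69 called genes (15 higher, 54 lower) became 40 (7 and 33) with no filter on TPM, 28 (4 and 24) at an adjusted p of 0.01 and 6 (0 and 6) when a change beyond 0.5 on the log2 scale was tested (treat); 25 were higher after quantile normalization. Leaving out 1 library gave 39 to 65 called, 7 to 18 higher and 31 to 47 lower. Of the corepressors, 8 were called without globin and mitochondrial genes, 6 at 0.01, 0 with treat, 7 with the replicate block and 6 to 12 with 1 library left out. The median log2 fold change of -0.11 became -0.064 with FPKM or with no filter, -0.059 without globin and mitochondrial genes, -0.057 after quantile normalization, -0.15 at a mean of 5 TPM or more and -0.042 with median-of-ratios scaling, and -0.14 to -0.11 with 1 library left out. The log2 ratio of the summed TPM became -0.047 without globin and mitochondrial genes, and ranged from -0.13 to -0.10 with 1 library left out.

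Calls by cluster moved with most settings. With treat they became 1, 0, 0, 0, 0, 0, 2 and 2 in clusters 1 to 8. At 0.01, clusters 2, 3, 4, 6, 7 and 8 had 1, 1, 1, 2, 6 and 9, and with no filter 4, 1, 1, 4, 8 and 13. At a mean of 5 TPM or more, clusters 2, 4, 6 and 8 had 3, 1, 6 and 12. Cluster 2 had 4 calls with median-of-ratios scaling, 5 without globin and mitochondrial genes and 2 with the replicate block, and cluster 3 had 1 in each of these and after quantile normalization. With 1 library left out clusters 1 to 8 had 2 to 4, 1 to 6, 1 to 3, 1 to 4, 3 to 5, 4 to 9, 6 to 16 and 14 to 17 calls. A gap of 2 Mb left 5 clusters, the merged ones with 11, 7 and 35 calls.

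Signs that turned, none of a called gene, were SETDB1 (0.00027 with median-of-ratios scaling, 0.0058 after quantile normalization), ZNF417 (0.031 after quantile normalization), ZNF581 (0.0021 with median-of-ratios scaling, 0.026 without control replicate 1 and -0.17 to 0.026 over the libraries left out, 0.15 summed with overlapping genes), ZNF763 (-0.13 summed) and ZNF91 (-0.011 without control replicate 3 and -0.011 to 0.13 over the libraries left out). The sum over overlapping genes was chosen after seeing the data. A stricter threshold lowers the counts by construction, and for the other settings the cause was not tested. Same-numbered libraries did not deviate together (correlations of 0.017, -0.027 and -0.012, own number best in 2 of 6). With 3 libraries in each group this cannot tell whether same-numbered libraries were prepared together. With the replicate block 50 genes were called, 10 higher and 40 lower. Further calls of named genes were lost with no filter (ZNF69, ZNF221, ZNF414, ZNF471, ZNF837), with the replicate block (ZNF69, ZNF221, ZNF414, ZNF791, ZNF837), after quantile normalization (ZNF837), with a pseudocount of 0.1 (ZNF69) and with no mean-variance trend (ZNF414). Median coverage per library was 6.77 to 14.3 reads per base, and its effect on the calls was not tested.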
